A study of Mus musculus with 16 samples.

Results

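The genes described here build the potassium channels of the ventricle: Kcnip2 and Kcnd2 of the transient outward current, Kcnq1 and Kcna5 of the delayed rectifiers, Kcnj3 and Kcnj5 of the acetylcholine-gated current, and Kcnj8, Kcnj11 and Abcc9 of the ATP-sensitive (KATP) current. They were taken as every probe set whose platform annotation gives exactly 1 gene symbol equal to one of these names. That rule gave 12 probe sets for 9 genes, of 22626 probe sets without controls and 12393 genes with a 1-symbol probe set. Kcnd2 had 3 probe sets, Kcnip2 had 2 and the other 7 genes had 1 each. RNA of the left ventricle came from C57BL/6J mice, 12 to 14 weeks old, 14 days after transverse aortic constriction (TAC), in which a band narrows the aortic arch and loads the left ventricle, or after a sham operation. The 4 groups, sham-operated and TAC males and sham-operated and TAC females, held 4 animals and 4 arrays each. The series asks whether the sexes respond differently to pressure overload. The labels give the sham mice the same strain and age and name no genotype other than the strain.

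Potassium channels carry the outward currents that end the cardiac action potential. In the mouse ventricle, whose action potential is short, the fast transient outward current through the Kv4.2 pore encoded by Kcnd2 does much of this work, and the cytosolic subunit KChIP2, encoded by Kcnip2, is needed for it to reach the membrane in full. Kcna5 encodes Kv1.5, a pore of the slowly inactivating delayed rectifier of the mouse, and Kcnq1 encodes Kv7.1, the pore of the slow delayed rectifier. KATP channels open when ATP falls. They combine a Kir6 pore, Kir6.2 from Kcnj11 in ventricular myocytes or Kir6.1 from Kcnj8 in vascular smooth muscle, with a sulfonylurea receptor, of which SUR2 comes from Abcc9. Kcnj3 and Kcnj5 encode Kir3.1 and Kir3.4, the pore of the current that vagal acetylcholine opens, best known from the atria and the sinoatrial node.

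TAC lowered the transient outward channel genes and the SUR2 subunit gene in both sexes. Abcc9 fell 4.46-fold in each sex. In males and females Kcnip2 fell 2.82-fold and 2.64-fold, and Kcnd2 fell 1.90-fold and 2.00-fold on its brightest probe set. Kcnj3 fell in males, by 0.58 on the log2 scale, and was 0.33 lower in females without passing the test. Kcnq1, Kcna5, Kcnj8 and Kcnj11 passed the test in neither sex. No member was called higher. Signals are the deposited intensities, and the fold changes and log2 values are differences between group means of log2(signal + 16). The test was limma over 13576 probe sets, with a Benjamini-Hochberg adjusted p below 0.05 as the threshold and n = 4 arrays in each group.

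Of the 12 probe sets, 9 probe sets of 8 genes lay above the filter, which left out the dimmest 40% of all probe sets by their mean of log2(signal + 16) over the 16 arrays. The limit corresponds to a constant signal of 130.8, and an uneven probe set can have a higher mean signal and still lie below it. In males, 5 of the 9 fell, where 9.77% of all probe sets tested fell, and these 5 stood for 4 of 8 genes. In females 4 of the 9 fell, against 8.6% of all, and these stood for 3 of 8 genes. The median log2 difference of the 9 was -0.58 in males and -0.75 in females, and that of all probe sets was -0.03 in either sex. Averaged over the sexes, 5 of the 9 fell, against 15.8% of all, with a median of -0.49 for the 9 and -0.03 for all. Both sexes' calls held Abcc9, Kcnip2 and both Kcnd2 probe sets, and 5.61% of all probe sets were called lower in both sexes. The group means of the sexes came from different arrays. A single fit over the 16 arrays gave both sexes a shared estimate of the spread, so their calls are not fully separate tests. The averaged comparison used the same arrays as both. One of the Kcnd2 probe sets, 1450773_at, had TAC means under the filter limit and passed through its sham signal, so counts by gene are the ones to read.

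**Figure D1:**
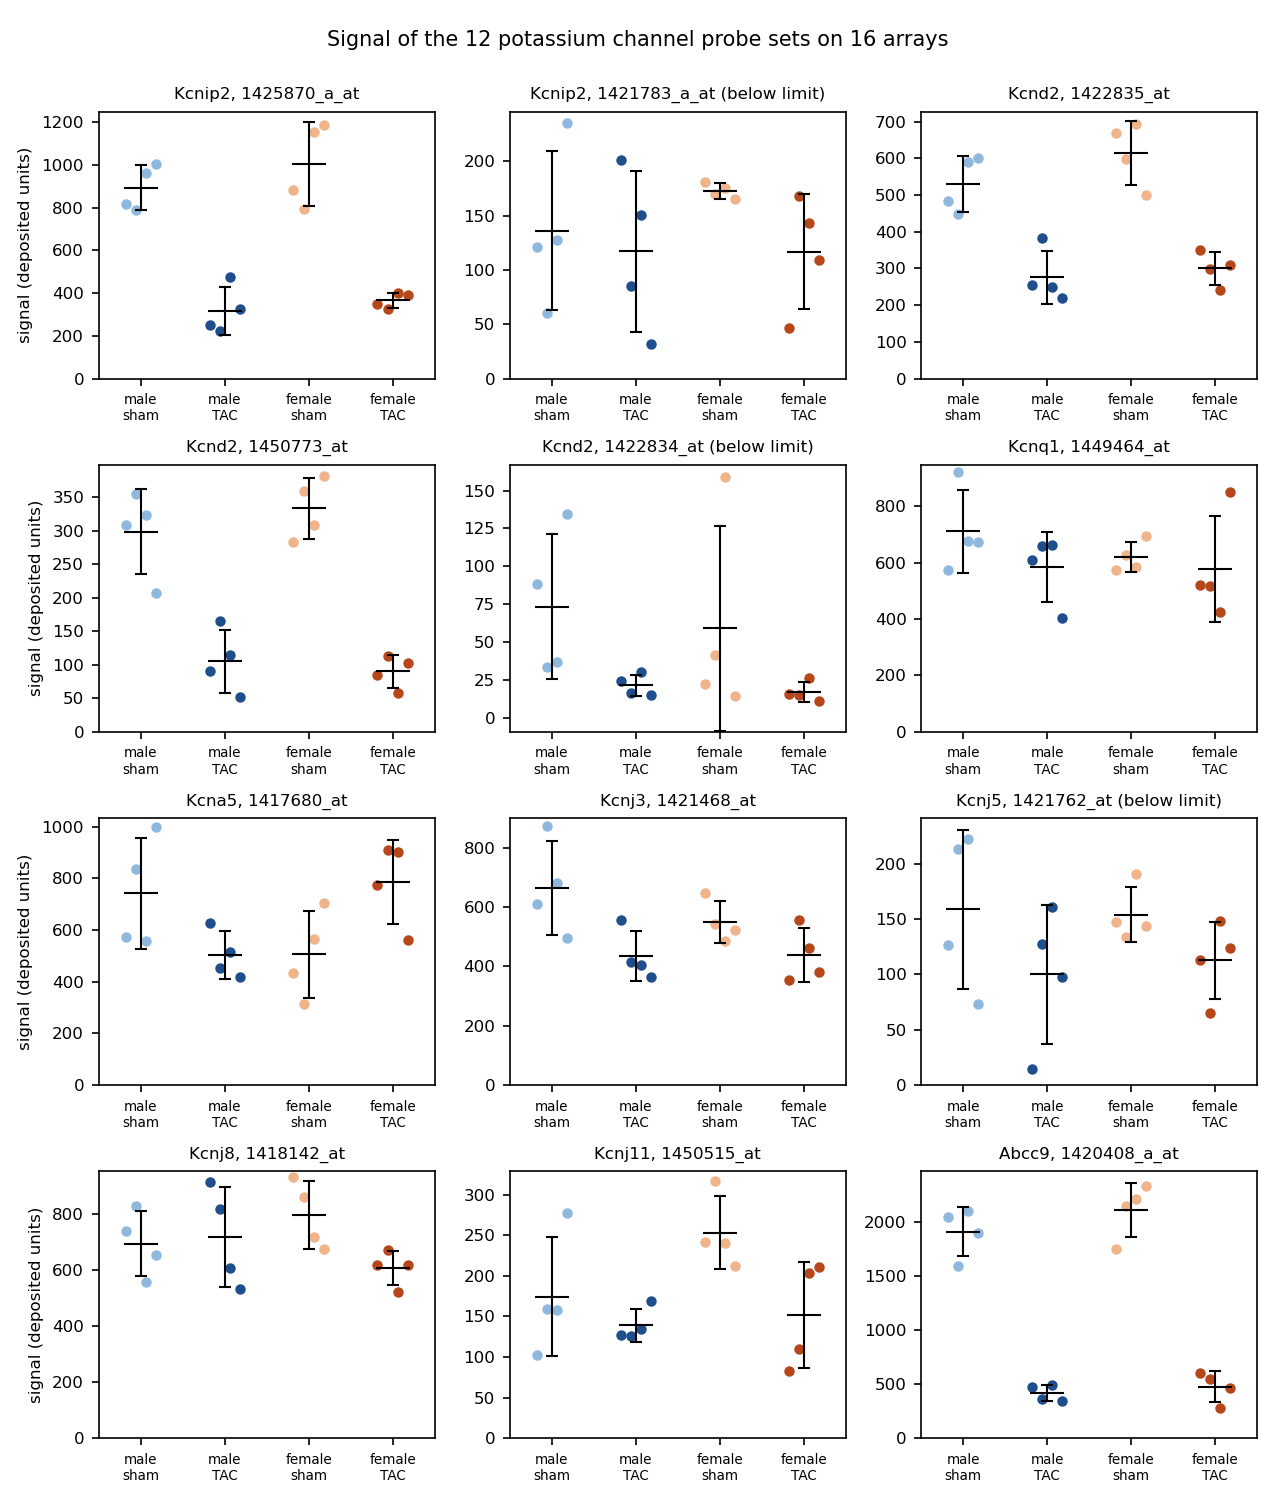
Deposited signal of each of the 12 probe sets on the 16 arrays, by group; each panel has its own linear scale in deposited units, points are single arrays, and the horizontal line with its bar is the mean and SD of 4 arrays. The TAC and sham arrays are apart in both sexes for Abcc9, for Kcnip2 1425870_a_at and for the tested Kcnd2 probe sets 1422835_at and 1450773_at, and overlap in at least 1 sex for the others; the bar of Kcnd2 1422834_at in female shams runs below 0 because its SD exceeds its mean.

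The promoters of the genes that fell together are shown with that of Kcnj8, the neighbour of Abcc9 on chromosome 6, which did not pass the test. RefSeq's promoter table, of the build GRCm38.p6, held a promoter for 7 of the 9 genes, not for Kcnq1 or Kcnj11. Each line gives the 250 bases before an annotated transcript start, 5′ to 3′ on the gene's own strand. For Kcnip2 and Abcc9 that start is 1 of several that are annotated. Capitals mark the GC box (GGGCGG, or CCGCCC on the other strand), a site of the Sp family, and the CACCC box (CACCC, or GGGTG on the other strand), a site of the Krüppel-like factors.
Kcnip2, chr19:45816064-45816313, minus strand: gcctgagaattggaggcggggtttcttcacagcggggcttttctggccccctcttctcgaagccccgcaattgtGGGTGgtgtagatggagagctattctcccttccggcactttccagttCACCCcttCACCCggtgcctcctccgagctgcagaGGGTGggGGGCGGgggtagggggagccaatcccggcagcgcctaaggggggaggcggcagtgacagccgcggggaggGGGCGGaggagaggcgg
Kcnd2, chr6:21215096-21215345, plus strand: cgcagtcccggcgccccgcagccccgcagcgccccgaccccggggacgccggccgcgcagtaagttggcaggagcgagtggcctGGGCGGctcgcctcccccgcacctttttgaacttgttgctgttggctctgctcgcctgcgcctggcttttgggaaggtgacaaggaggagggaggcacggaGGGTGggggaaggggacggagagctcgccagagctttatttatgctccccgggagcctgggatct
Abcc9, chr6:142702275-142702524, minus strand: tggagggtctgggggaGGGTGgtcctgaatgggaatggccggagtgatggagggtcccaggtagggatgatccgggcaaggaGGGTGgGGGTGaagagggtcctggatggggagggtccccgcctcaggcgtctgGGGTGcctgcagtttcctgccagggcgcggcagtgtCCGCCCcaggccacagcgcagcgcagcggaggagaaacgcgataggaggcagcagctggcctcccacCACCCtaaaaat
Kcnj8, chr6:142571615-142571864, minus strand: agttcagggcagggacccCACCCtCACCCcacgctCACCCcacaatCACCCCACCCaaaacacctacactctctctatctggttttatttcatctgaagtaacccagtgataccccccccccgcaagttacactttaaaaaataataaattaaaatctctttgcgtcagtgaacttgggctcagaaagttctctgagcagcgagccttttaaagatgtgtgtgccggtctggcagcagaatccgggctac
The Kcnip2 window held 4 CACCC matches and 2 GC boxes, that of Kcnd2 held 1 of each, that of Abcc9 held 5 CACCC matches and 1 GC box, and that of Kcnj8 held 5 CACCC matches and no GC box. The CACCC letters occurred at least once in 52.0% of the 32851 promoters searched over the same 250 bases, at least 4 times in 2.14% and at least 5 times in 0.667%. The GC box occurred in 32.7%. A pair of the Kcnj8 matches abut without sharing letters, and none of the printed matches overlaps a GC box. The GC content of the windows was 66.8% for Kcnip2, 68.8% for Kcnd2, 66.8% for Abcc9 and 49.2% for Kcnj8, against a median of 52.4% over all promoters. The Kcnj3 window, which is not printed, held no match to either. A match is a description of letters only.

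Kcnip2, which encodes the KChIP2 subunit of the transient outward channel, was measured above the filter by 1425870_a_at. Male shams had signals of 818.0, 789.9, 963.1 and 1002.5, and male TAC arrays had 250.0, 221.4, 473.6 and 324.5. Female shams had 884.0, 790.9, 1155.0 and 1184.5, and female TAC arrays had 348.2, 324.2, 401.8 and 388.9. Every TAC array lay below every sham array of its sex, and the lowest sham array of either sex, at 789.9, lay above the highest TAC array, at 473.6. The mean went from 893 ± 105 (SD, n = 4) to 317 ± 113 in males, a log2 fold change of -1.498 ± 0.20 (SE; adjusted p = 2.52e-05). In females it went from 1004 ± 196 to 366 ± 35.9, a log2 fold change of -1.40 ± 0.20 (adjusted p = 7.45e-05). In males 101 of the 13576 probe sets had a lower log2 difference, and in females 89.

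The second Kcnip2 probe set, 1421783_a_at, was dimmer than the filter limit and did not separate the groups. Male shams ranged from 60.4 to 235.5 and male TAC arrays from 31.8 to 201.5. Female shams lay between 164.8 and 180.9 and female TAC arrays between 46.3 and 168.1, so the groups overlapped in both sexes. Fitted without the filter, its log2 difference was -0.28 in males (adjusted p = 0.809) and -0.62 in females (adjusted p = 0.512). The 2 probe sets thus had the same sign and differed in whether they passed, and the annotation does not say which KChIP2 splice forms each detects.

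Kcnd2, the gene of the Kv4.2 pore, was read by 3 probe sets, of which 1422835_at was the brightest. Its signals were 483.0, 449.4, 591.0 and 600.7 in male shams and 253.9, 382.6, 248.6 and 220.2 in male TAC. They were 668.7, 597.2, 694.5 and 498.6 in female shams and 350.1, 299.1, 240.4 and 310.2 in female TAC. The groups did not overlap in either sex; in males the closest arrays were TAC 2 at 382.6 and sham 2 at 449.4. The log2 fold change was -0.92 ± 0.18 in males (adjusted p = 0.00144) and -0.998 ± 0.18 in females (adjusted p = 0.000962), or 1.90-fold and 2.00-fold lower.

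The second probe set above the filter, 1450773_at, was also lower on every TAC array. Its TAC means lay under the filter limit, so it was tested only through its sham signal and does not add separate support. Male shams read 308.8, 354.4, 323.4 and 207.9, against 91.1, 164.7, 114.0 and 52.4 in male TAC. Female shams read 283.6, 359.2, 309.2 and 382.1, against 85.0, 113.8, 58.3 and 103.2 in female TAC. The log2 fold change was -1.43 ± 0.30 in males (adjusted p = 0.00196) and -1.74 ± 0.30 in females (adjusted p = 0.000457). The third probe set, 1422834_at, was below the filter, with signals of 33.7 to 134.8 in male shams, 15.1 to 29.9 in male TAC, 14.0 to 158.7 in female shams and 11.3 to 26.5 in female TAC. Without the filter its log2 difference was -1.12 in males (adjusted p = 0.166) and -0.83 in females (adjusted p = 0.353), the same sign as the others without passing. A difference near the bottom of the range is compressed by the added 16, so the sizes of the 3 probe sets are not set against each other.

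**Figure D2:**
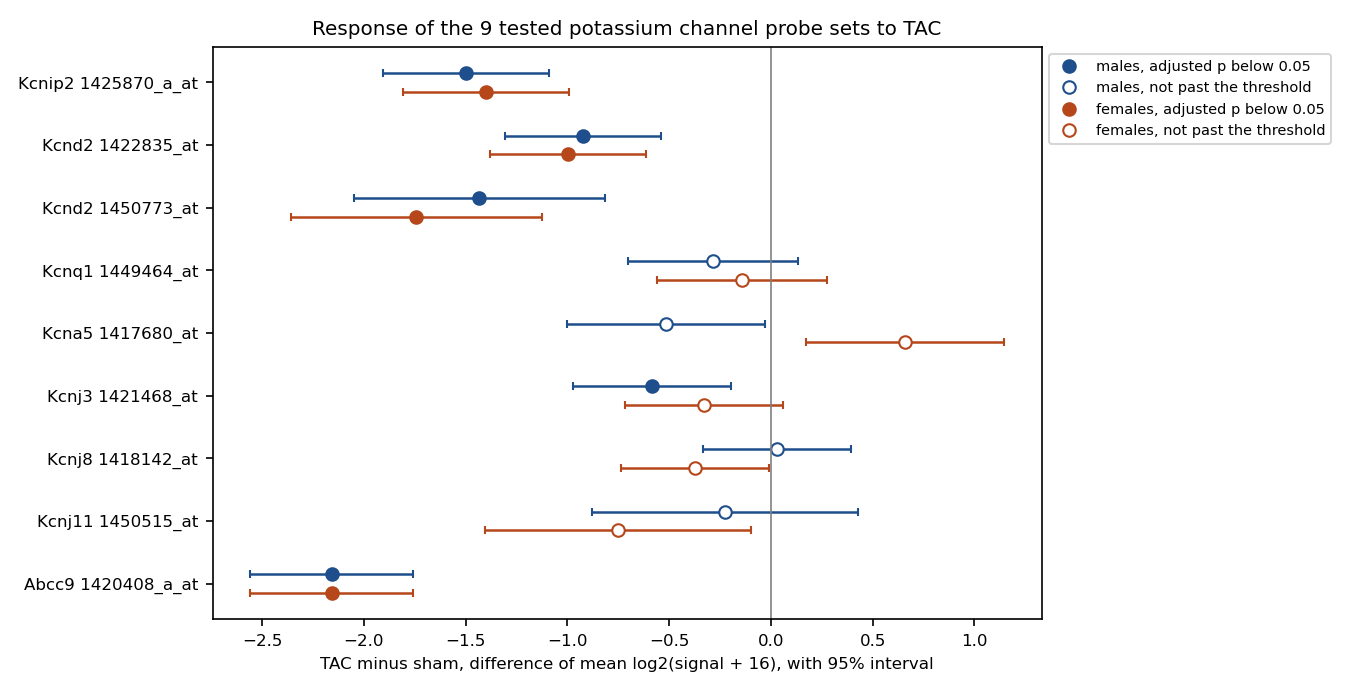
Difference between TAC and sham means of log2(signal + 16) for the 9 probe sets above the filter, with 95% confidence intervals, in males (blue) and females (orange); filled points passed the adjusted p threshold of 0.05. Abcc9, Kcnip2 and both Kcnd2 probe sets lie left of 0 in both sexes, and Kcnj3 is filled in males only. Kcna5 and Kcnj8 have unfilled points on opposite sides of 0, the male point of Kcnj8 lying close to it at 0.03.

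The delayed rectifier genes did not pass the test. Kcna5, the Kv1.5 pore gene, was nominally lower after TAC in males and nominally higher in females. Male shams read 575.1, 836.7, 556.3 and 1000.0 and male TAC arrays 627.5, 453.5, 515.8 and 418.2, with 1 TAC array inside the sham range. Female shams read 435.2, 314.9, 567.2 and 706.2 and female TAC arrays 776.1, 909.7, 903.9 and 562.6, with 1 TAC array inside the sham range. The means were 742 ± 214 and 504 ± 91.8 in males, and 506 ± 169 and 788 ± 162 in females. The log2 difference was -0.52 in males (95% interval -1.005 to -0.03, adjusted p = 0.14) and 0.66 in females (0.17 to 1.15, adjusted p = 0.0631).

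The female response of Kcna5 exceeded the male response by 1.18 on the log2 scale (95% interval 0.49 to 1.86), with an unadjusted p of 0.00196 that did not survive adjustment (adjusted p = 0.512). Of all 13576 probe sets, 49 (0.361%) had a p at most this small in that comparison. In sham hearts Kcna5 was 0.56 lower in females (adjusted p = 0.406), and after TAC it was 0.62 higher in females (adjusted p = 0.714), so both operations enter the difference. The order of the means was male TAC, female sham, male sham and female TAC, and no neighbouring pair of groups in that order was free of overlap. The female value lay near the threshold and passed in 5 of 19 alternatives. These were median centring (0.77, adjusted p = 0.03), a replicate block (adjusted p = 0.0181) and the dimmest 60% left out (adjusted p = 0.0472). The others were the array female TAC 5 left out (0.81, adjusted p = 0.0341) and female sham 4 left out (0.83, adjusted p = 0.0259). In the remaining 14 it did not pass. Over the 19 the value went down to 0.46 and the adjusted p up to 0.457.

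Kcnq1, the Kv7.1 pore gene, was measured by 1449464_at. The male arrays read 574.8, 920.7, 677.0 and 673.2 after sham surgery and 610.7, 659.3, 662.6 and 402.5 after TAC. The female arrays read 574.1, 628.7, 583.4 and 693.1 after sham surgery and 520.5, 517.6, 423.5 and 849.2 after TAC. The groups overlapped in both sexes, and a single array stood highest among the male shams and the female TAC arrays. The log2 difference was -0.28 in males (95% interval -0.70 to 0.13, adjusted p = 0.372) and -0.14 in females (-0.56 to 0.28, adjusted p = 0.702).

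The acetylcholine-gated channel genes Kcnj3 and Kcnj5 were both nominally lower after TAC. Kcnj3, which encodes Kir3.1, read 609.0, 873.7, 682.0 and 495.6 in male shams and 555.3, 416.1, 404.5 and 363.7 in male TAC. It read 648.3, 542.0, 484.9 and 522.9 in female shams and 354.8, 555.6, 461.5 and 382.1 in female TAC. In males 1 TAC array, at 555.3, lay above the lowest sham array, and in females TAC 2, at 555.6, lay above 3 of the shams. The log2 fold change in males was -0.58 ± 0.19 (adjusted p = 0.0345), in females -0.33 ± 0.19 (adjusted p = 0.266), and averaged over the sexes -0.46 ± 0.13 (adjusted p = 0.0128). The male call was narrow: it was lost without any 1 of 5 arrays (male sham 2 or 3, male TAC 2, 4 or 5), with adjusted p from 0.0729 to 0.126. It was also lost with no filter (0.0551), with only the male groups (0.0598) and with a replicate block (0.0776). With the ratio of 3′ to 5′ Gapdh signal as a covariate both the male call (adjusted p = 0.347) and the averaged call (adjusted p = 0.331) were lost.

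Kcnj5, which encodes Kir3.4, lay below the filter. The male arrays read 126.5, 213.1, 222.9 and 72.9 after sham surgery and 14.5, 127.8, 161.4 and 97.7 after TAC. The female arrays read 147.9, 133.6, 190.7 and 144.1 after sham surgery and 113.4, 65.5, 148.8 and 124.0 after TAC. The groups overlapped in both sexes. Without the filter the log2 difference was -0.74 in males (adjusted p = 0.405) and -0.43 in females (adjusted p = 0.683).

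Among the KATP channel genes the receptor fell and neither pore passed the test. Abcc9, measured by 1420408_a_at, read 2039.4, 1589.7, 2100.6 and 1896.6 in male shams and 476.5, 364.4, 489.7 and 339.9 in male TAC. It read 1748.8, 2143.8, 2209.4 and 2332.0 in female shams and 607.2, 549.8, 279.4 and 465.3 in female TAC. All 8 TAC arrays lay below all 8 sham arrays, with a gap from 607.2 to 1589.7. The mean went from 1907 ± 228 to 418 ± 76.5 in males and from 2108 ± 252 to 475 ± 143 in females. The log2 fold change was -2.16 ± 0.19 in each sex (adjusted p = 3.89e-07 in males and 5.15e-07 in females), and 14 of the 13576 probe sets in males and 8 in females had a lower one. The difference between the responses of the sexes was -0.0009, with a 95% interval from -0.57 to 0.57.

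Kcnj8, the Kir6.1 gene that lies beside Abcc9, gave signals of another kind. Male shams had 738.8, 827.8, 557.9 and 654.7, and male TAC arrays had 913.7, 820.4, 608.1 and 531.7, which overlapped on both sides. Female shams had 933.1, 860.9, 717.8 and 676.1, and female TAC arrays had 619.5, 671.3, 523.2 and 619.5, all below the shams by a small margin. The log2 difference was 0.03 in males (95% interval -0.33 to 0.39, adjusted p = 0.935) and -0.37 in females (-0.74 to -0.01, adjusted p = 0.164). With the 18S rRNA signal as a covariate the female value became -0.65 and passed (adjusted p = 0.023), while the male value became -0.44 without passing (adjusted p = 0.257). That signal was lower on every female TAC array than on every female sham, so the female fit cannot tell it and the operation apart.

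Kcnj11, the Kir6.2 gene, was dim, with a mean of 179.6 over the 16 arrays. The male arrays read 103.1, 158.8, 158.3 and 277.5 after sham surgery and 127.6, 125.5, 134.4 and 169.5 after TAC. The female arrays read 241.8, 317.1, 240.2 and 212.5 after sham surgery and 82.8, 110.0, 204.1 and 211.0 after TAC. The male groups overlapped, and in females the highest TAC array, at 211.0, lay just below the lowest sham, at 212.5. The log2 difference was -0.23 in males (95% interval -0.88 to 0.43, adjusted p = 0.682) and -0.75 in females (-1.41 to -0.10, adjusted p = 0.117). Abcc8, the gene of the other receptor, SUR1, which lies beside Kcnj11 on chromosome 7, differed by -0.01 in males (adjusted p = 0.973) and 0.06 in females (adjusted p = 0.874).

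Counting arrays rather than tests, 4 of the 9 probe sets had every TAC array below every sham array in males, where 10.9% of all probe sets did, and 6 of 9 did in females, where 11.6% did. The 4 were Abcc9, Kcnip2 and both Kcnd2 probe sets. Kcnj8 and Kcnj11 joined them in females. Counted by gene, with Kcnd2 taken by its brighter probe set, that is 3 of 8 genes in males and 5 of 8 in females. The 10.9% and 11.6% are shares of probe sets, not of genes.

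The sexes were compared directly in 3 ways. For the female response minus the male response, 0 of the 9 probe sets passed (limma), as did 0 (0%) of all 13576, and 1 of 9, Kcna5, had an unadjusted p below 0.05, against 6.61% of all. The response difference lay at 0.10 for Kcnip2 (95% interval -0.48 to 0.67), at -0.07 for Kcnd2 1422835_at (-0.62 to 0.47) and at 0.26 for Kcnj3 (-0.29 to 0.80). It was -0.40 for Kcnj8 (-0.92 to 0.11) and -0.53 for Kcnj11 (-1.45 to 0.40). These intervals leave room for differences in either direction. Between females and males, 0 of 9 passed within sham (0.309% of all probe sets did) and 0 of 9 within TAC (0.0663% of all). In either, 1 of 9, Kcna5, had an unadjusted p below 0.05, where 10.5% of all probe sets did within sham and 6.44% within TAC. For each of the genes that fell in both sexes, the order of the group means was therefore the 2 TAC groups and then the 2 sham groups, and the sexes within an operation overlapped.

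The rest of the potassium channel genes on the array were read in the same fits. Of 56 other potassium channel genes with a probe set, 22 were tested and 34 lay below the filter. In males 0 rose and 2 of 22 fell, Kcna7 and Kcnk3, close to the 9.77% of all probe sets. In females 0 of 22 passed (limma). An unadjusted limma p below 0.05 was found for 4 of 22 in males and 7 of 22 in females. Of all probe sets, 27.3% had an unadjusted p of at most 0.0383 in males and 26.5% one of at most 0.0434 in females. Averaged over the sexes 1 was called higher, Kcnc1, and 4 lower, Kcna2, Kcna7, Kcnh2 and Kcnk3. These 4 of 22 are close to the 15.8% of all probe sets called lower. With each of the 16 arrays left out in turn, the averaged call was lost in 12 fits for Kcnc1, 8 for Kcna2 and 7 for Kcnk3, and in none for Kcna7 and Kcnh2. With the ratio of 3′ to 5′ Gapdh signal as a covariate all 5 averaged calls were lost, and the Kcnc1 value went from 1.13 to 0.0458 (adjusted p = 0.983). With the 18S signal those of Kcnc1, Kcna2, Kcnk3 and Kcnh2 were lost. The median log2 difference of the 22 was -0.15 in males and -0.09 in females, beside -0.03 for all probe sets in either sex. Kcnk3, which encodes the two-pore channel TASK-1, went from 1945 ± 215 to 1332 ± 355 in males (log2 -0.57, adjusted p = 0.0179) and was 1726 ± 170 and 1643 ± 285 in females (log2 -0.08, adjusted p = 0.793). The difference between the sexes did not pass (0.49, adjusted p = 0.756), and the male call was lost when male TAC 4 was left out (adjusted p = 0.0673) and when male sham 4 was (adjusted p = 0.0625). Kcna7, a Shaker-type pore gene, was 0.65 lower in males (adjusted p = 0.0355) and 0.45 lower in females (adjusted p = 0.158); its male call was lost without any 1 of 4 arrays, with adjusted p up to 0.119. Kcnh2, the gene of the rapid delayed rectifier pore, was 0.33 lower averaged over the sexes (adjusted p = 0.0146).

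Partners of the members in the same currents were often too dim to test. Kcnd3, the other Kv4 pore gene of the ventricle, had a mean signal of 56.9 and Kcnj2, the main inward rectifier pore gene, one of 16.6. Kcne1, Kcnk2, Kcna4 and Kcnab2 were also below the filter. The genes Kcnj12 and Kcnip1 passed in no TAC comparison. Kcnab1, which encodes a cytosolic β subunit that binds Kv1 pores such as that of Kcna5, was 0.45 higher in males (adjusted p = 0.298) and 0.63 lower in females (adjusted p = 0.136), the opposite signs to Kcna5 in each sex; the difference between the sexes did not pass (adjusted p = 0.661).

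**Figure D3:**
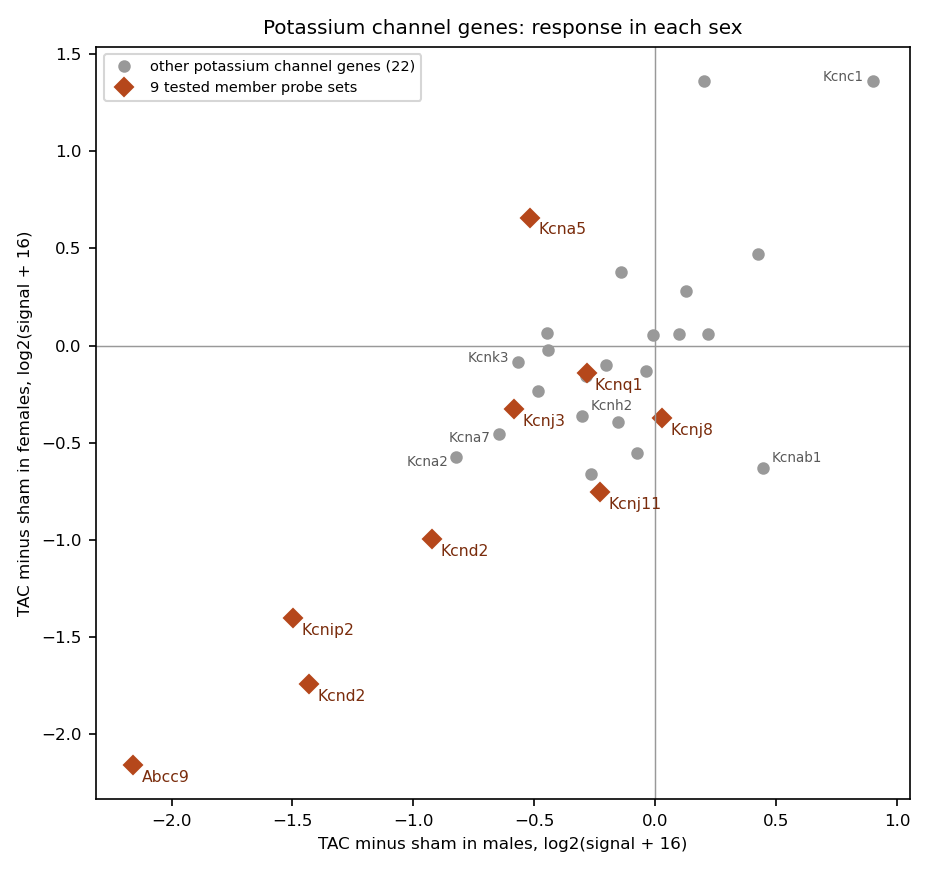
Difference between TAC and sham means of log2(signal + 16) in males (x axis) and females (y axis) for the 9 tested member probe sets (diamonds, labelled) and the 22 other tested potassium channel genes (grey points, some labelled). Abcc9, Kcnip2 and both Kcnd2 probe sets lie apart at the lower left, Kcna5 lies at the upper left with values of -0.52 and 0.66, and the grey points spread around 0 with medians of -0.15 and -0.09.

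The genes whose profiles over the 16 arrays were most like a member's were found from the root mean square difference between profiles, each centred on its own mean of log2(signal + 16), among 8264 other genes. For Abcc9 they were Nebl (0.312), Gpcpd1 (0.437) and Lgals4 (0.442), where the median over all genes was 1.15. For Kcnip2 they were Klhl24 (0.236), Gpcpd1 (0.236) and Smyd1 (0.289), against a median of 0.833. For Kcnd2 they were Rtn2 (0.222), Bclaf1 (0.228) and Gstk1 (0.234), against 0.609, and for Kcnj3 they were Mtmr1 (0.162), Clpb (0.179) and Sqor (0.181), against 0.446. Gpcpd1 appears for both Abcc9 and Kcnip2. Nebl, the nebulette gene (a protein of the Z-disc), was 1.74 lower after TAC in males and 2.26 lower in females, and Smyd1, a muscle methyltransferase gene, was 1.29 and 1.03 lower.

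Measures of RNA and of cell types also differed between TAC and sham arrays. For Gapdh, the 3′ signal divided by the 5′ signal was higher on every TAC array, 1.08 ± 0.07 against 0.885 ± 0.039 in males and 0.989 ± 0.030 against 0.865 ± 0.058 in females. Its exact permutation p was 0.0286 in each sex, the smallest that 4 against 4 arrays can give (adjusted 0.0571 over 20 tests). The 5′ signal of 18S rRNA differed by -3.03 on the log2 scale in males, where male TAC 5 stood apart, and by -1.77 in females. With the Gapdh ratio as a covariate, Abcc9 kept its male call (-2.18, adjusted p = 0.00349), while Kcnip2 (-1.03, adjusted p = 0.102), Kcnd2 1422835_at (-1.18, adjusted p = 0.058), Kcnd2 1450773_at (-1.92, adjusted p = 0.0548) and Kcnj3 (-0.64, adjusted p = 0.347) lost theirs. The 4 female calls held, with adjusted p between 0.000223 and 0.0293. Without the ratio the male values were -1.498 for Kcnip2, -0.92 and -1.43 for the Kcnd2 probe sets and -0.58 for Kcnj3. Since the ratio separated every TAC array from every sham array of its sex, these fits cannot tell the ratio and the operation apart. With the 18S signal as a covariate all 5 male and all 4 female calls held. In females the log2 18S signal was at most 10.731 on TAC arrays and at least 10.738 on shams. The female fits therefore cannot tell this signal and the operation apart.

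RNA of a whole ventricle cannot tell fewer cells of a type from less RNA per cell. The left ventricular label fits the cardiomyocyte markers, all 10 of which were above the filter, with Myl2 at 31384 to 64395. The mean log2 level of those 10 genes was 14.66 to 14.88 in male shams and 14.46 to 14.73 in male TAC, and 14.71 to 14.76 and 14.33 to 14.60 in females. In males 5 of 10 fell, where 9.77% of all probe sets did. In females 7 fell, where 8.6% of all did, and 1 rose. The 12 mural cell markers, whose cells carry Kcnj8 and Abcc9, were 0.23 higher in males (exact permutation p = 0.143, adjusted 0.19) and 0.10 lower in females (exact permutation p = 0.8286, the same after adjustment). The mean log2 level of the 7 atrial markers, which bear on Kcnj3, was 1.23 higher after TAC in males and 1.25 in females (exact permutation p = 0.0286 and adjusted 0.0571 in each). Whether that rise came from atrial cells was not tested. Of the 5 atrial markers above the filter, 2 were called higher (limma) in each sex. Nppa went from a mean of 5094 to 30022 in males and from 3333 to 23014 in females. Myl4 went from 333 to 867 and from 328 to 830. Myl7, which lay below the filter, went from a mean of 30.4 to 302 in males and from 67.3 to 396 in females. Stard10 alone went the other way, from 1024 to 776 in males and from 772 to 637 in females. On average the 9 fibroblast markers were 1.0 and 0.44 higher and the 9 macrophage markers 0.43 and 0.31 higher, the 11 endothelial markers 0.10 and 0.09 higher. Single markers went the other way. The mean signal of the fibroblast marker Dcn was lower after TAC in both sexes, and those of Pdgfra, Lum and Tcf21 were lower in females. Among macrophage markers, Mrc1 was lower in males and Cd68 in females. Of the endothelial markers, Pecam1, Cdh5, Tie1 and Emcn were lower in both sexes, Kdr and Tek in females and Flt1 in males. The median log2 difference of the 11 was 0.02 in males and -0.01 in females. Mural markers were mixed as well. Rgs5, Cspg4, Myh11, Rgs4 and Vtn were lower in both sexes, and Acta2 in females. Pdgfrb, Notch3, Tagln, Cnn1 and Mcam were higher in both, and Higd1b and Acta2 in males. The 6 measured conduction system markers differed by 0.08 in males and -0.37 in females, and the 6 measured neuron and glia markers by -0.15 and 0.19; none of the markers was at 0 on all arrays. The part of these cell type levels in the channel gene results was not tested.

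**Figure D4:**
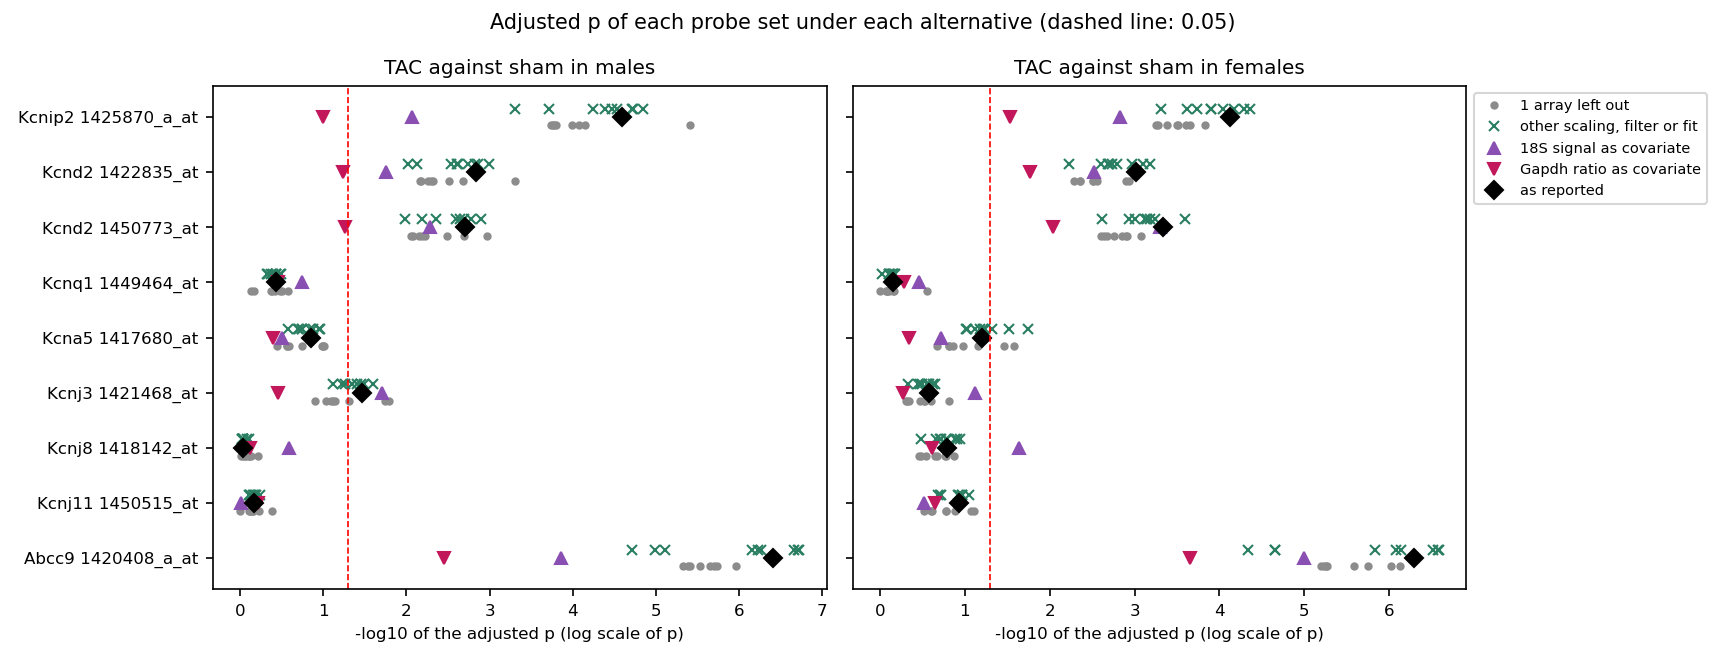
Adjusted p, as -log10, of the 9 tested probe sets for TAC against sham in males (left) and females (right) under each alternative: black diamonds are the values reported, grey points leave out 1 array, crosses use another scaling, filter or fit, and triangles add the 18S signal or the Gapdh ratio as a covariate; the dashed line is 0.05. Abcc9 stays right of the line in every setting, and once the Gapdh ratio enters as a covariate the other male values lie left of it.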

How the data were processed

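Total RNA of 16 left ventricles was hybridised to 16 Affymetrix arrays, 1 per animal. Each title closes with a serial number, and each group occupies consecutive numbers. The labels do not say what is numbered. Should this be an order of handling, it and the group cannot be told apart. The series text gives another array name than the mouse array whose probe sets the table holds. The authors deposited 1 table of intensity values, 22690 probe sets by 16 arrays, made with GCOS, per the submitters' processing notes; the version and settings are not given in the sources used here. The deposited intensities were already scaled, as checked on the values: after trimming 2% at each end, the mean was 499.9 on all arrays. No further scaling was applied.

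The analysis used log2(signal + 16). The 64 control probe sets and the dimmest 40% by mean log2 value over the 16 arrays were left out. limma 3.58.1 in R 4.3.3 fitted 4 group means over all 16 arrays with an intensity trend. The tests were 2-sided with Benjamini-Hochberg adjustment over all 13576 probe sets. Single values per array were compared by exact permutation (scipy). The script was tested on simulated data. Without detection calls, dim signal and absent expression cannot be told apart. Precision is limited by the number of arrays.

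Genes were named from the platform annotation, checked against RefSeq by Entrez ID for 20351 probe sets, with 0 symbols changed. Outside the 9 genes, 1 probe set per gene was used, that with the highest mean. Named genes were, in each list, those called in both sexes and a fixed set of action potential genes; others named were chosen after their values were seen. The members and lists were chosen with earlier results of these data known. Alternatives were median centring, quantile normalization, a pseudocount of 1 or 64, no filter, the dimmest 60% left out, no trend, only the groups compared, a replicate block, the 18S signal or the Gapdh ratio as a covariate, and each array left out in turn.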

Additional observations from a re-analysis of the deposited data

Results flagged for a closer look

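None of the 48 groups of member signals held an array that stood apart from the other 3. In 132 groups of 4 arrays looked at in all, 5 held an array whose gap to the nearest other took up nearly the whole range of the group. Chance alone gives about 1 in 20 groups. Cacnb2, a calcium channel subunit gene, read 130.2 on male TAC 5, where the others of its group read 11.2 to 28.0. The 18S rRNA 5′ signal of the same array was 13.2 on the log2 scale, where the others read 9.06 to 9.54, so the fits with the 18S signal as a covariate lean on this array. Mef2a read 4529.3 on male sham 3, against 3534.6 to 3591.6, and 2503.8 on female TAC 3, against 3238.8 to 3362.6. Nedd4 read 4789.4 on female sham 2, against 5316.9 to 5425.1 on the other female shams.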

How the results depend on the processing

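The calls of Abcc9 held in both sexes under every alternative run, with adjusted p at most 0.00349. The count of member probe sets called in males went from 5 to 1 with the Gapdh ratio as a covariate, where the calls over all probe sets went from 2422 to 398 in males, from 2045 to 498 in females and, for the averaged comparison, from 3890 to 640; the averaged member count was then 4, without Kcnj3 (-0.50, adjusted p = 0.331). With the 18S signal the calls over all were 1000, 1529 and 1917. With each array left out, the member counts stayed at 4 to 5 in males and in females, and at 5 for the average of both. The replicate numbers gave no pairing: residuals of 19 same-number pairs correlated at -0.035 to 0.115, 1 of them over 0.1. With a replicate block 4 member probe sets were called in males, 5 in females and 5 averaged, and 0 for the difference between the sexes. Kcnd2 1450773_at and the Kcnj11 probe set were below the filter with the dimmest 60% left out, so they were not tested there. Signs turned for some values near 0 that were not called. With the Gapdh ratio, the response difference became -0.0527 for Kcnip2, 0.00817 for Kcnd2 1422835_at and 0.0058 for Abcc9, the averaged Kcna5 value -0.10 and the male Kcnj8 value -0.23. With the 18S signal, the averaged Kcna5 value became -0.0204, the male Kcnj8 value -0.44 and the Abcc9 response difference 0.0339; the averaged Kcnj8 value, -0.54, then passed (adjusted p = 0.0343). The Abcc9 response difference was 0.0229 with quantile normalization, 0.0588 with median centring, 0.0013 with a pseudocount of 1 and 0.0763 with the block. With single arrays left out, the response differences ranged from -0.0475 to 0.30 for Kcnip2, -0.17 to 0.0842 for Kcnd2 1422835_at, -0.0555 to 0.27 for Kcnq1 and -0.13 to 0.23 for Abcc9. The averaged Kcna5 value then ranged from -0.0293 to 0.16, the male Kcnj8 value from -0.10 to 0.16 and the male Kcnj11 value from -0.43 to 0.0060. The cause of these shifts was not tested.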

Other observations

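Genes of the other ion currents and of the factors tied to potassium channels were looked at beside the members. Over all probe sets 9.77% fell in males and 8.6% in females. Of 6 tested sodium, calcium and pacemaker channel genes, 3 fell in males and 2 in females, and 0 rose. Their median log2 difference was -0.41 in males and -0.33 in females, beside -0.03 for all probe sets in either sex. Cacna1c, the pore gene of the L-type calcium channel, went from 1451 ± 166 to 898 ± 97.7 in males (log2 -0.68, adjusted p = 0.000855) and from 1618 ± 127 to 1086 ± 141 in females (log2 -0.57, adjusted p = 0.00408). With the Gapdh ratio as a covariate its values were -0.56 and -0.49 and did not pass (adjusted p = 0.202 and 0.149). Cacnb2, the gene of a subunit of that channel, was 2.48 lower in males (adjusted p = 0.00114) and 1.92 lower in females (adjusted p = 0.00933). Its TAC means, 46.9 and 106.3, lay under the filter limit, so it passed through its sham signal. Its values were -2.38 and -1.86 with the Gapdh ratio (adjusted p = 0.153 and 0.159), and -0.95 and -1.03 with the 18S signal (adjusted p = 0.334 and 0.14). Cacna2d1 fell in males (log2 -0.53, adjusted p = 0.0183) and was 0.22 lower in females without passing (adjusted p = 0.371). The difference between the sexes did not pass (0.31, adjusted p = 0.848), and the male call was lost without male TAC 1 (adjusted p = 0.0693). The averaged value was -0.37 (adjusted p = 0.0116), and with the 18S signal or the Gapdh ratio neither call held.

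Of 4 tested pump and exchanger genes, 1 fell in females, where 8.6% of all probe sets did. The gene was Slc8a1, that of the sodium-calcium exchanger. It differed by -0.68 in males (adjusted p = 0.076), by -0.78 in females (adjusted p = 0.0454) and by -0.73 averaged over the sexes (adjusted p = 0.00466). The female call was lost without any 1 of 6 arrays, and the averaged call held with each array left out but was lost with either covariate.

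Of 17 regulators tied to these channel genes, 2 fell in males and 2 in females, close to the 9.77% and 8.6% of all probe sets, and 1 rose in males. The riser, Hif1a, was 0.68 higher (adjusted p = 0.0407), a call lost without any 1 of 6 arrays. It was also lost in 5 of 11 other settings, among them the 18S signal (adjusted p = 0.0605) and the Gapdh ratio (adjusted p = 0.687). Irx3, a homeobox gene of the conduction system, was 0.47 lower in males (adjusted p = 0.042) and 0.60 lower in females (adjusted p = 0.012). Its male call was lost without any 1 of 6 arrays and its female call without female TAC 2 (adjusted p = 0.05003), and with either covariate it passed in neither sex. Mef2a fell by 0.50 on the log2 scale in males (adjusted p = 0.0044) and by 0.49 in females (adjusted p = 0.00662). Both calls were lost with the 18S signal (-0.31 and -0.37, adjusted p = 0.291 and 0.0734) and with the Gapdh ratio (-0.63 and -0.58, adjusted p = 0.103 and 0.0578), and the female call also with median centring (adjusted p = 0.057). Klf15, which encodes a Krüppel-like factor known to act on Kcnip2, was 0.52 lower in males (adjusted p = 0.154) and 0.43 lower in females (adjusted p = 0.255). Its averaged value of -0.47 passed (adjusted p = 0.0412), but was lost in 11 of 16 fits with an array left out and in 7 of 10 other settings, and was -0.0013 with the Gapdh ratio.

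Of 9 tested scaffold and trafficking genes, 1 fell in each sex, which is near the share of all probe sets. It was Nedd4, a ubiquitin ligase gene, which fell by 0.55 in males (adjusted p = 0.000665) and by 0.72 in females (adjusted p = 7.45e-05). The male call was lost with the 18S signal (-0.46, adjusted p = 0.0656) and with the Gapdh ratio (-0.40, adjusted p = 0.241).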
